A study of Homo sapiens with 24 samples.

Results

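MLL4 chromatin binding with and without a UTX construct was compared from the MLL4 peak lists of stable UMUC1 lines; UMUC1 is an established cell line from a human bladder cancer. The WT line expressed wild-type UTX and the EV line held the empty vector, both from the puromycin-selectable pSIN-puro vector. Each line had 1 MLL4 list, 898 peaks in WT and 133 in EV, out of 1483402 peaks and regions in the 18 lists of the series. Peaks of both lists that shared at least 1 bp were merged, which gave 930 MLL4 sites. The HEAA line carried UTX with the substitutions H1146A and E1148A in its catalytic domain, and its MLL4 list of 1125 peaks served as a further list that had no part in sorting the sites. All lines were grown alike and harvested 3 days after plating. Each construct was represented by 1 line, and the labels do not say whether a line was a pool or a clone. There was also 1 list per line for UTX, H3K4me1 and H3K27me3 and there were 2 numbered libraries per line for H3K27ac. Read depth is unknown for all of them, and nothing measured from 1 list has a replicate error. Positions are on hg19.

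MLL4, also called KMT2D, is a large histone methyltransferase that places H3K4me1, the monomethyl mark of enhancers. UTX, also called KDM6A, is a demethylase of H3K27me3, the mark of Polycomb repression, and is a subunit of the complexes that MLL4 and the related MLL3 form. H3K27ac marks active enhancers and promoters. A peak called in WT and not in EV is a site above the caller's threshold in WT and below it in EV, which is not the same as a site without MLL4 in EV.

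Before the sites could be compared, some properties of the lists had to be taken into account. None of the MLL4 lists held a peak on chromosomes 20, 21 or 22, where the UTX list of WT had 205 peaks (7.99% of that list) and the first H3K27ac library of EV had 3929 regions (6.64%). All comparisons were therefore limited to chromosomes 1 to 19 and X, and MLL4 on the missing chromosomes was not analysed here. The UTX lists there held 2360 peaks in WT, 2606 in HEAA and 30 in EV. A group of 10 shared MLL4 peaks, all of those with a fold enrichment under 3 in WT, stood apart. They lay on chromosomes 1, 6, 7 and 16, the first on each starting at 121484421, 58776456, 61968826 and 46391883. They are called the peaks next to the centromeres here as a name only, since no map of centromeres was used. Their fold enrichments were 1.76 to 2.04 in WT and 2.05 to 2.68 in EV, yet −log10 q reached 17.8 in WT and 30.5 in EV. All 10 had an MLL4 peak in HEAA, none had a UTX peak or H3K4me1 or H3K27ac of WT or EV, and 1 lay in H3K27me3 of EV. The widest, at chr6:58778152-58779320, spanned 1169 bp. The next lowest fold enrichments were 3.22 among peaks called in WT only and 3.60 among the other shared peaks. Most shares, ranks and medians of the shared peaks are given both with and without these 10. The plots, the profile around the summits and values under other overlap rules or list lengths include them unless stated.

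The WT list was 6.75 times as long as the EV list, and most MLL4 sites were called in WT only. Of the 930 sites, 797 were called in WT only (85.7%), 101 in both lines, and 32 in EV only (3.44%). With the WT list limited to its 133 strongest peaks by q, the length of the EV list, 92 sites were WT-only, 41 shared (6 of them next to the centromeres) and 92 EV-only. Distances to the other list are a description only, since the classes exclude overlap. They also depend on how many peaks the other list holds, so WT-only and EV-only distances are not comparable. Of the 797 peaks called in WT only, 7 had an EV peak within 1 kb and 39 (4.89%) within 100 kb. Their median gap to the nearest EV peak was 5.75 Mb. Of the 32 EV-only peaks, 2 had a WT peak within 1 kb and 12 within 100 kb. The 8 WT peaks on chromosome X had no EV counterpart, since the EV list had no peak there.

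Shared sites were defined by the overlap of a WT and an EV peak, which in itself keeps their summits near each other. Each of the 101 shared sites was a single WT peak over a single EV peak, with summits a median of 25 bp apart (quartiles 10 and 46 bp) and within 100 bp of each other in 94. The WT peak was the wider in 77 of the pairs and the EV peak in 23. Without the peaks next to the centromeres the median distance was again 25 bp, with 84 of 91 within 100 bp, and the WT peak was the wider in 70 and the EV peak in 20. Over all pairs, the median WT peak held 99.5% of the bases of its EV partner, while the median EV peak held 69.7% of the bases of its WT partner.

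Membership in the EV list followed peak strength. When the WT peaks were ranked by q and split into 10 groups, an EV peak was found at 5 of the 90 weakest (5.56%) and at 33 of the 90 strongest (36.7%). Even in the strongest group, most WT peaks were therefore not in the EV list. The share with a HEAA MLL4 peak was 31.1% in the weakest and 86.7% in the strongest group, and that with a UTX peak of WT was 48.9% and 82.2%. None of the peaks next to the centromeres was in the weakest group, and without the 5 in the strongest the shares there were 32.9% in EV, 85.9% with HEAA MLL4 and 87.1% with UTX. From the EV side, 36 of the 45 strongest EV peaks (80.0%) were in the WT list, as were 37 of the 44 in the middle (84.1%) and 28 of the 44 weakest (63.6%). Without the peaks next to the centromeres these shares were 76.3%, 83.3% and 62.8%.

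**Figure D1:**
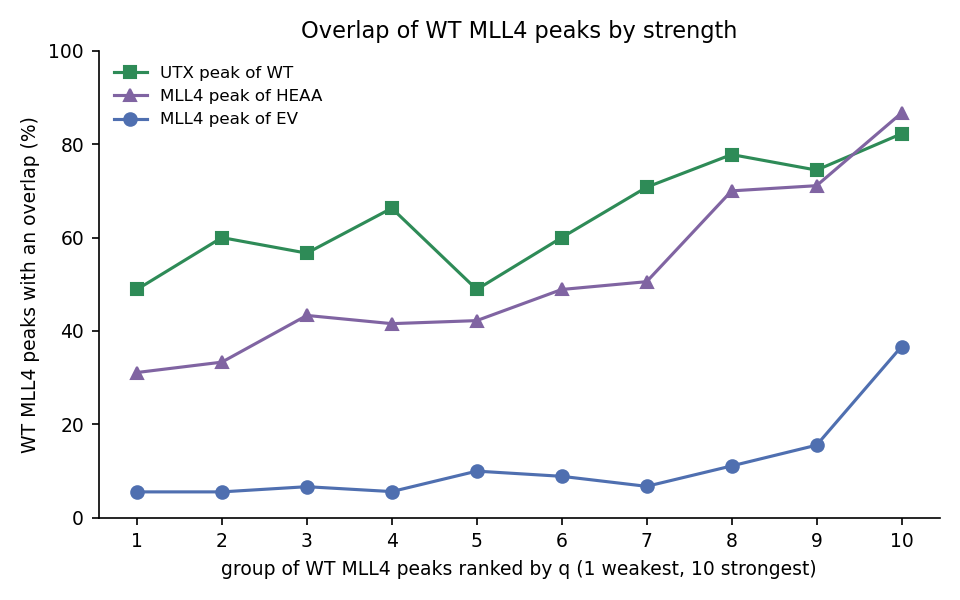
Share of WT MLL4 peaks (y axis, %) that overlapped a UTX peak of WT, an MLL4 peak of HEAA or an MLL4 peak of EV, in 10 groups ranked by q (x axis, weakest to strongest). The share in the EV list stayed between 5.56% and 15.6% over the first 9 groups and was 36.7% in the last.

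WT-only peaks had a median fold enrichment of 5.94 in the WT list (quartiles 5.17 and 6.98), against 6.42 for the shared peaks in the same list (5.29 and 8.09) and 6.83 without the 10 peaks next to the centromeres. Their median −log10 q was 6.62, against 10.3 for shared peaks (10.1 without the 10), and their median width 202 bp, against 245 bp (242 bp). In the EV list, EV-only peaks had a median fold enrichment of 6.64 and a median −log10 q of 6.24, and shared peaks 7.16 and 8.25 (7.30 and 7.76 without the 10). These values describe how the classes arise and are no test, since strength helps decide which list a peak enters. Fold enrichments are not comparable between lists.

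The strongest WT-only sites all lay at UTX peaks. The 12 with the highest fold enrichment ranged from 10.0 to 14.0 in the WT MLL4 list. The first, chr19:39524235-39524469, was enriched 14.0-fold for MLL4 in WT and 9.52-fold in HEAA, with UTX peaks at 12.8-fold in WT and at 11.7-fold in HEAA. The second site, chr12:123555186-123555464, had MLL4 at 14.0-fold in WT and at 18.3-fold in HEAA, the highest value of the HEAA list, with UTX at 11.1-fold in WT and 13.3-fold in HEAA. Both sites had H3K4me1 and H3K27ac in WT and also in EV. The site at chr19:54116036-54116235 (11.9-fold for MLL4 in WT, 8.65-fold in HEAA) had a UTX peak in WT at 6.41-fold and none in HEAA, and was the 1 of the 12 without a UTX peak in HEAA. It had H3K4me1 in WT and not in EV. The site at chr6:106567424-106567728 (11.3-fold in WT, 4.97-fold in HEAA) had H3K27ac in each library of WT and EV and no H3K4me1 in either line. Of the 12 sites, all had a HEAA MLL4 peak and a UTX peak in WT, and 11 had H3K27ac in both EV libraries. H3K4me1 was at 8 in WT and at 7 in EV. Over all WT peaks these shares were 51.9%, 64.6%, 79.3%, 48.4% and 58.7%. The strongest of the 10 groups by q had HEAA MLL4 at 86.7%, UTX at 82.2% and H3K27ac in both EV libraries at 86.7%. H3K4me1 of EV was at 57.8% there. None of the 12 had a UTX peak or H3K27me3 in EV, against 0.557% and 0.111% of all WT peaks.

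The strongest shared sites were of mixed kinds. The site ranked first over both lists, chr14:50328823-50329317, was enriched 12.3-fold in WT, 9.12-fold in HEAA and 13.4-fold in EV. It had H3K27ac in both libraries of WT and of EV and neither a UTX peak nor H3K4me1. The second, chr2:129062776-129063163, was enriched 9.48-fold for MLL4 in WT, 13.2-fold in HEAA and 11.8-fold in EV, and had a UTX peak at 10.4-fold in WT and another in HEAA. The site at chr1:145399181-145399457 (8.72-fold in WT, 11.1-fold in HEAA, 11.4-fold in EV) and the site at chr6:27636303-27636553 (10.7-fold, 7.87-fold and 9.49-fold) had no UTX peak in any line. The chromosome 6 site also had no H3K4me1, H3K27ac or H3K27me3 call in WT or EV. Of the 8 shared sites ranked highest, 8 had a HEAA MLL4 peak, 5 a UTX peak in WT, 6 H3K27ac in both EV libraries and 3 H3K4me1 in EV. The shares over all 101 shared sites were 89.1%, 47.5%, 70.3% and 34.7% (87.9%, 52.7%, 78.0% and 38.5% without the 10).

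Among EV-only sites, the strongest had none of the other features. That peak, chr1:16872394-16872579, was enriched 12.3-fold in EV, with no MLL4 peak in WT or HEAA, no UTX peak and no histone region in WT or EV. The second, chr5:180633804-180633979, was enriched 4.97-fold in HEAA and 10.5-fold in EV, and the third, chr6:39237868-39238024, 8.65-fold in HEAA and 10.2-fold in EV. Of the 8 EV-only peaks with the highest fold enrichment, 6 had an MLL4 peak in HEAA. None had one in WT, which the definition of the class requires. A UTX peak of WT lay at 3 of the 8, H3K27ac in both EV libraries at 5 and H3K4me1 of EV at 4. Over all 32 EV-only peaks, HEAA MLL4 was at 43.8%, UTX of WT at 37.5%, H3K27ac in both at 59.4% and H3K4me1 at 53.1%.

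The HEAA list, which had not been used to make the classes, held most of the shared sites and under 50% of the WT-only and the EV-only sites. A HEAA MLL4 peak was present at 51.9% of all WT peaks. Such a peak lay at 376 of the 797 WT-only sites (47.2%, 95% Wilson interval 43.7% to 50.6%), at 90 of the 101 shared sites (89.1%, 81.5% to 93.8%; 87.9% of 91 without the peaks next to the centromeres) and at 14 of the 32 EV-only sites (43.8%, 28.2% to 60.7%). Wilson intervals here cover counting error only, as sites of 1 list are not replicates. Among the WT-only sites, those also called in HEAA were somewhat stronger, with a median fold enrichment of 6.23 in the WT list against 5.74 for the 421 others. They had a UTX peak of WT at 78.2% and a UTX peak of HEAA at 80.1%, against 56.5% and 50.4% of the others.

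In the full UTX lists, UTX peaks marked the WT-only sites at a higher rate than the shared ones. The order turned round when the WT UTX list was limited to its strongest peaks, as many as the WT MLL4 list holds, with 40.9% of WT-only and 43.6% of shared sites. A UTX peak of WT was called at 64.6% of all WT MLL4 peaks and one of HEAA at 62.8%. For WT UTX the counts were 532 of 797 WT-only sites (66.8%, 63.4% to 69.9%), 48 of 101 shared sites (47.5%, 38.1% to 57.2%) and 12 of 32 EV-only sites (37.5%, 22.9% to 54.7%). Leaving out the 10 peaks next to the centromeres gave 52.7% of 91 shared sites (42.6% to 62.7%). With HEAA UTX the counts were 513 WT-only (64.4%), 51 shared (50.5%, or 56.0% without the 10) and 12 EV-only sites. The UTX list of EV lay at 3 WT-only and 2 shared sites and at 0 of 32 EV-only sites, which allows a share of up to 9.38% (3 counts of the total; the Wilson upper limit is 10.7%). So 200 WT-only sites and 50 shared sites had a UTX peak in neither WT nor HEAA.

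**Figure D2:**
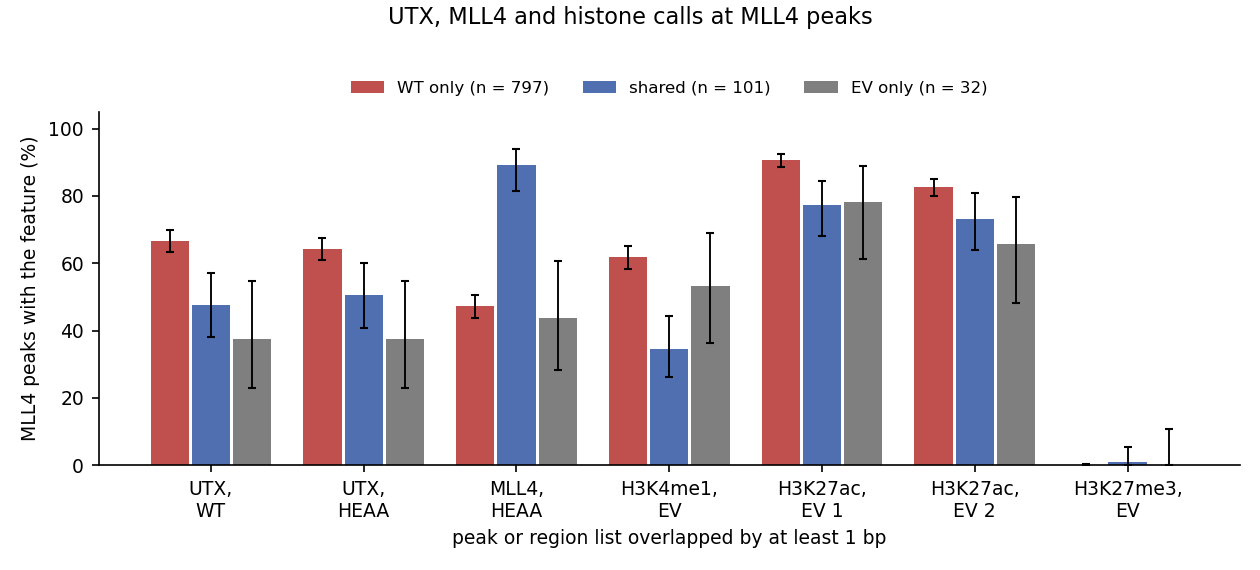
Share of MLL4 peaks (y axis, %) that overlapped each UTX, MLL4 or histone list by at least 1 bp, for WT-only (n = 797), shared (n = 101) and EV-only peaks (n = 32), with EV 1 and EV 2 the numbered H3K27ac libraries; error bars are 95% Wilson intervals, which cover counting error only. Shared peaks had the highest share in the HEAA MLL4 list (89.1%) and the lowest share with H3K4me1 of EV (34.7%).

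Because shared peaks were stronger, the classes were also set side by side within 3 equal bands of WT q. In the weakest band, UTX of WT lay at 58.2% of 280 WT-only and 31.6% of 19 shared peaks. The middle band had it at 60.1% of 278 and 57.1% of 21, and the strongest at 84.5% of 239 and 49.2% of 61. Without the peaks next to the centromeres the shared values were 33.3%, 63.2% and 55.6%, so the order of the classes turned round in the middle band. A HEAA MLL4 peak was present at 33.2%, 41.0% and 70.7% of the WT-only peaks from the weakest to the strongest band, and at 84.2%, 90.5% and 90.2% of the shared peaks (83.3%, 89.5% and 88.9% without the 10). H3K4me1 of EV was at 63.9%, 57.6% and 64.0% of the WT-only peaks and at 21.1%, 38.1% and 37.7% of the shared peaks (22.2%, 42.1% and 42.6% without the 10).

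UTX peaks that met MLL4 peaks were strong ones within the UTX list. The UTX peak at WT-only sites had a median fold enrichment of 6.11 (median percentile 71.1 of the WT UTX list) and at shared sites 7.57 (percentile 90.7). The 1769 UTX peaks of WT without an MLL4 peak in WT or EV had 5.01 (percentile 42.9). These 1769 are called UTX peaks without MLL4 below, although 302 of them (17.1%) had an MLL4 peak in HEAA. The summits of the UTX and MLL4 peaks lay a median of 29.5 bp apart at WT-only sites and 18 bp at shared sites. They were within 100 bp at 91.5% and 87.5%. These pairs were chosen by overlap of narrow peaks, so their summits could not lie far apart.

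The shared sites fell into different kinds by UTX. Of the 48 with a UTX peak of WT, all had one in HEAA, 29 had H3K4me1 of EV (60.4%, 46.3% to 73.0%) and 43 had H3K27ac in both EV libraries (89.6%). Of the 53 without, 3 had a UTX peak in HEAA, 6 had H3K4me1 of EV (11.3%, 5.29% to 22.6%) and 28 had H3K27ac in both EV libraries (52.8%). Leaving out the 10 peaks next to the centromeres left 43 without UTX, with H3K4me1 at 14.0% and H3K27ac in both libraries at 65.1%. MLL4 was called in HEAA at 91.7% of the shared sites with UTX and at 86.8% of those without (83.7% of the 43). Among WT-only sites the split by UTX went with other features. H3K4me1 of EV lay at 61.8% of the 532 with UTX and 61.5% of the 265 without, a HEAA MLL4 peak at 55.3% and 30.9%, and H3K27ac in both EV libraries at 85.9% and 69.4%.

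**Figure D3:**
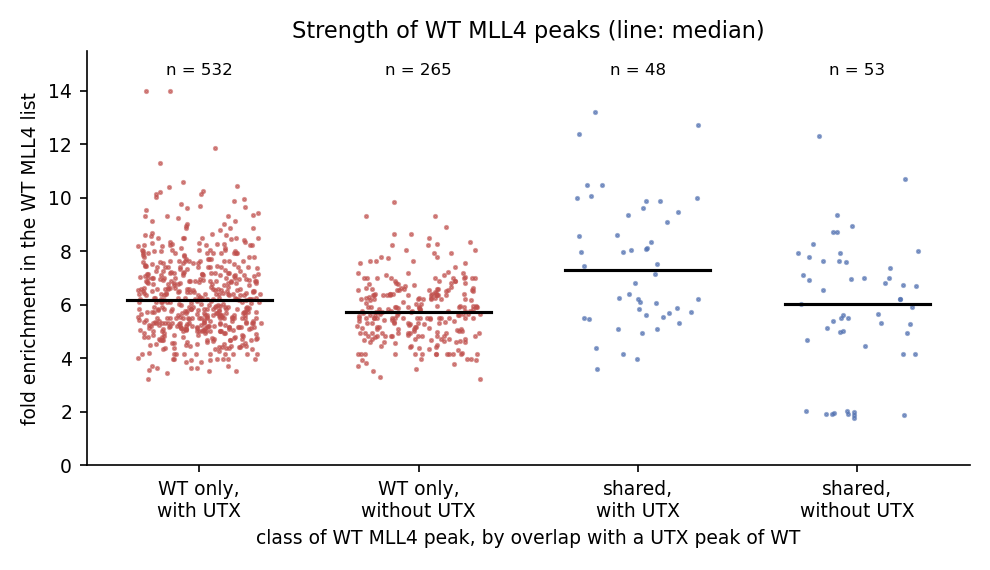
Fold enrichment in the WT MLL4 list (y axis) of each WT MLL4 peak (points; black lines are medians) for WT-only and shared peaks with and without a UTX peak of WT (x axis). The 10 peaks at about 2-fold are shared peaks without UTX, those named in the text as next to the centromeres.

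What chromatin the WT-only sites had in EV was read from the EV histone lists. An H3K4me1 or H3K27ac region of EV lay at 96.5% of WT-only sites and at 97.3% of UTX peaks without MLL4. EV is a separate line, so these shares give no order in time. H3K27ac of EV was called at 90.7% of WT-only sites in the first library and at 82.7% in the second (all WT peaks 89.2% and 81.6%), and in both libraries at 641 (80.4%, 77.5% to 83.0%; all WT peaks 79.3%). The shared sites had 77.2% and 73.3%, and in both libraries 70.3% (60.8% to 78.3%). Without the peaks next to the centromeres these were 85.7%, 81.3% and 78.0% of 91. EV-only sites had 78.1% and 65.6%, and in both 59.4% (42.3% to 74.5%). The UTX peaks without MLL4 had 83.4% and 79.4%, and in both 75.2%.

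H3K4me1 of EV was called at 492 WT-only sites (61.7%, 58.3% to 65.0%), at 35 shared sites (34.7%, 26.1% to 44.3%) and at 17 EV-only sites (53.1%, 36.4% to 69.1%), with 58.7% over all WT peaks. Without the peaks next to the centromeres, 38.5% of the shared sites had it (29.1% to 48.7%). The UTX peaks without MLL4 had it at 69.2% (67.1% to 71.4%). H3K27me3 of EV had 231899 regions over 239 Mb, 218940 of them on the chromosomes used. It touched 0 of the 797 WT-only sites and 1 of 898 WT peaks in all (0.111%). The count of 0 allows a share of up to 0.376% of WT-only sites (3 counts), where the Wilson upper limit is 0.480%. Within 1 kb of the WT-only sites there was also no H3K27me3 region of WT or EV. At the UTX peaks without MLL4, 4 of 1769 had H3K27me3 of EV (0.226%).

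Sorted by the EV marks together, 398 WT-only sites (49.9%) had H3K27ac in both libraries with H3K4me1 and 243 (30.5%) had H3K27ac in both without H3K4me1. A further 100 (12.5%) had H3K27ac in 1 EV library, 28 had H3K4me1 alone and 28 had neither. The last 28 each lay within 1 kb of an EV region. UTX of WT was present at 70.6% of the sites with both marks, at 72.4% of those with H3K27ac without H3K4me1, and at 25.0% of those with neither. Of the 101 shared sites, 31 had both marks, 40 had H3K27ac without H3K4me1, and 19 had neither, among them the 10 next to the centromeres. UTX of WT was called at 28 of the 31 shared sites with both marks (90.3%) and at 15 of the 40 with H3K27ac without H3K4me1 (37.5%). All 797 WT-only sites, all 32 EV-only sites and 91 of 101 shared sites lay within 1 kb of an H3K4me1 or H3K27ac region of EV. Those regions covered 172 Mb, or 369 Mb with 1 kb added on each side. The exceptions were the 10 peaks next to the centromeres.

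The EV regions at each class of MLL4 site, and at UTX peaks without MLL4, were wide and strong for their lists. In the first H3K27ac library of EV, those at WT-only sites had a median width of 3.56 kb and a median fold enrichment of 7.09. Over all regions of that list these were 1.01 kb and 3.94. In the second library the values were 3.10 kb and 7.97, against 1.16 kb and 4.94. For H3K4me1 they were 3.70 kb and 4.25, against 0.737 kb and 2.91. EV regions at UTX peaks without MLL4 had 3.55 kb and 6.86 in the first H3K27ac library. Those at shared sites had 2.83 kb and 7.14 there, and those at EV-only sites 2.71 kb and 6.62. Shared sites had 2.70 kb and 8.91 in the second library, and 3.62 kb and 4.66 for H3K4me1. A wide region has more room for a peak than a narrow one, and the part of width was not tested. WT MLL4 peaks lay in 1.41% of the H3K27ac regions of the first EV library and in 1.67% of those of the second, and 22 and 19 regions held at least 2 of them. In each library, 8 WT-only sites lay in a region that also held an EV MLL4 peak.

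At WT-only and shared sites, both marks of EV were less often called at the MLL4 summit than 0.5 kb beside it. H3K4me1 of EV covered 52.2% of the summits of WT-only sites, 89.1% of the points 0.5 kb away, 85.1% at 1 kb and 54.4% at 2 kb. Shared sites had lower values near the summit, 22.8%, 55.9%, 59.4% and 42.6% at the same distances, or 25.3% at the summit and 65.9% at 1 kb without the peaks next to the centromeres. EV-only sites had 50.0%, 76.6%, 73.4% and 35.9%. The dip at H3K27ac was shallower, with 87.5% of the WT-only summits covered and 93.1% at 0.5 kb in the first EV library. UTX peaks without MLL4 had the dip too, around the UTX summit. H3K4me1 of EV covered 57.4% of those summits and 91.3% of the points at 0.5 kb. H3K27ac covered 77.6% and 87.1% in the first EV library, and 73.8% and 80.7% in the second.

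**Figure D4:**
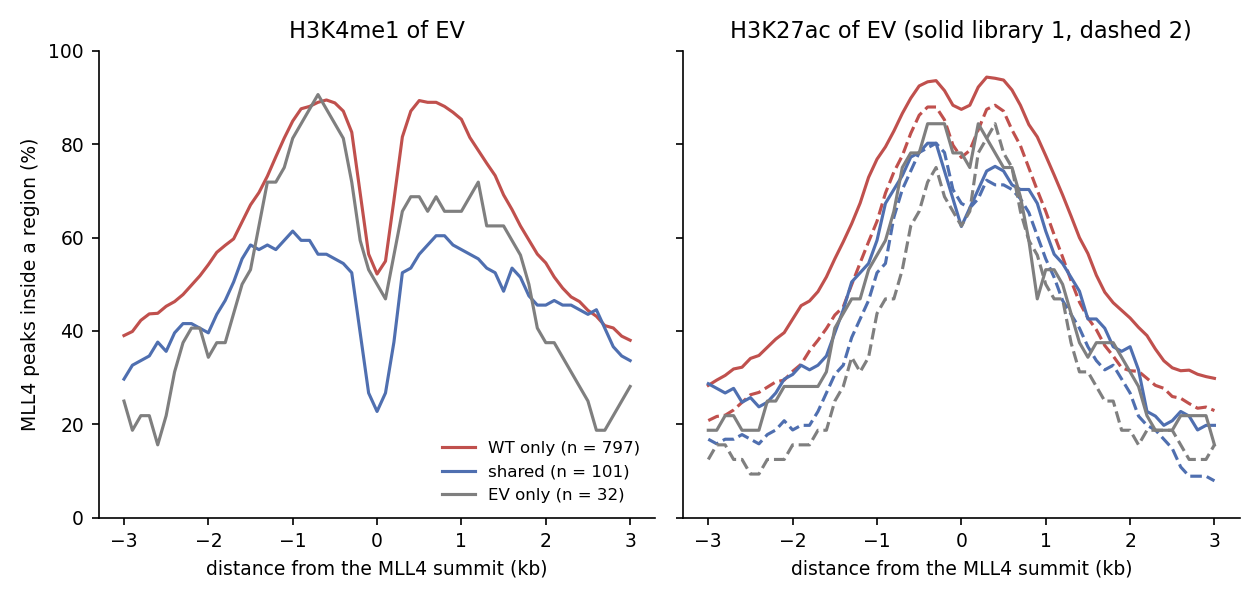
Share of MLL4 peaks (y axis, %) whose point at a given distance from the MLL4 summit (x axis, kb) lay in an H3K4me1 region (left) or an H3K27ac region (right; solid lines library 1, dashed lines library 2) of EV, for WT-only, shared and EV-only peaks. At the summit, H3K4me1 covered 52.2% of WT-only and 22.8% of shared peaks, below the values on either side.

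Whether acetylation at the WT-only sites differed between WT and EV could be asked over libraries. H3K27ac was called at 94.5% and 75.3% of the 797 sites in the WT libraries and at 90.7% and 82.7% in the EV libraries (over all WT MLL4 peaks, 92.7% and 74.2% in WT). The WT values lay on both sides of the EV values. The means were 84.9% ± 13.6 in WT and 86.7% ± 5.68 in EV (SD, n = 2 each), a difference of −1.82 percentage points (exact two-sided permutation test, p = 1; the smallest p that 3 splits allow is 0.33). The lists themselves differed in length in the same order as the shares. On the chromosomes used, WT had 59267 and 37619 regions and EV 55216 and 42640. With all lists limited to their 37619 strongest regions the difference was −1.44 points (exact permutation, p = 1). By site, 562 WT-only sites (70.5%) had H3K27ac in all of these libraries and 27 in none. Only 4 had it in both WT libraries and neither EV library, and 2 in both EV libraries and neither WT library. At shared sites the WT libraries had 78.2% and 65.3% (86.8% and 72.5% without the 10). The EV libraries had 77.2% and 73.3% there (85.7% and 81.3% without the 10). EV-only sites had 78.1% and 56.2% in WT and 78.1% and 65.6% in EV.

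**Figure D5:**
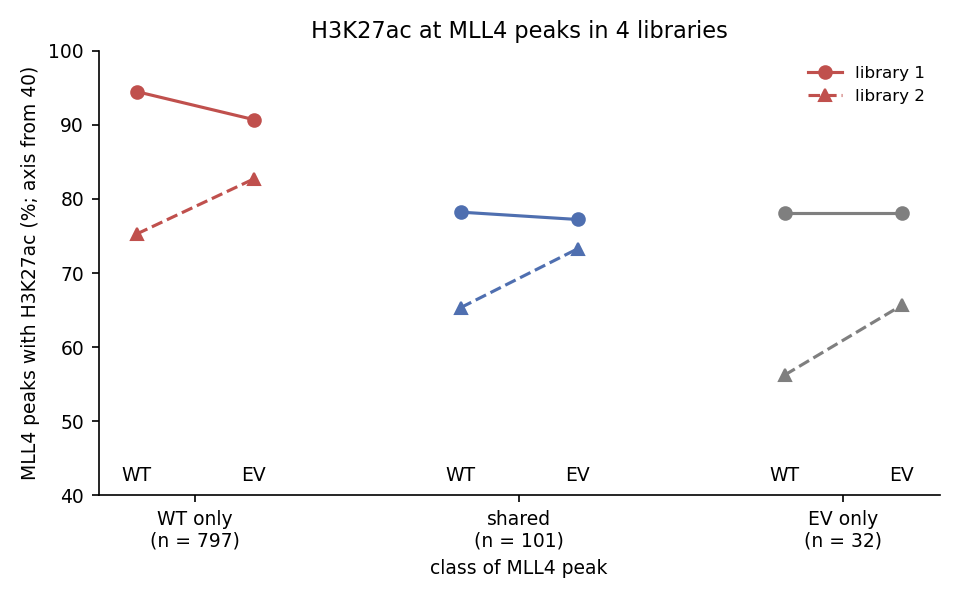
Share of MLL4 peaks with an H3K27ac region (y axis, %, starting at 40) in each numbered library of WT and EV, for WT-only, shared and EV-only peaks; lines join libraries of the same number, which the labels do not pair. At WT-only peaks the WT libraries were at 94.5% and 75.3%, on either side of the EV libraries at 90.7% and 82.7%.

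H3K4me1 was called at fewer WT-only sites in WT than in EV, in lists without replicates. At WT-only sites the counts were 403 in WT (50.6%) and 492 in EV (61.7%), a difference of −11.2 percentage points. Over all WT MLL4 peaks the share in WT was 48.4%. H3K4me1 was called in WT but not EV at 50 WT-only sites and in EV but not WT at 139. The WT list was the longer, with 154279 regions against 128629 in EV on the chromosomes used. The difference was −12.4 points at WT-only sites with a UTX peak of WT and −8.68 at those without. The UTX peaks without MLL4 had 59.1% in WT and 69.2% in EV (−10.1 points). At shared sites the shares were 31.7% in WT and 34.7% in EV (35.2% and 38.5% without the 10). That direction turned round with the summit inside a region, to a difference of 0.990 points. At EV-only sites the shares were 37.5% in WT and 53.1% in EV. With the regions widened by 1 kb the difference at WT-only sites was −0.627 points, with 97.9% in WT and 98.5% in EV.

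MLL4 sites were unevenly spread along the chromosomes. Leaving out the peaks next to the centromeres, 3 of the 60 EV MLL4 peaks at a UTX peak of WT shared a 1 Mb bin with another of their kind, against 25 of the 63 EV peaks without UTX. In the WT list the numbers were 257 of 580 with UTX and 108 of 308 without, which were not compared, since the share grows with the size of the group. On chromosome 11, 4 EV peaks lay between positions 59318036 and 59333982, all shared with WT and none with UTX. A stretch of chromosome 6 at 26 to 29 Mb, which contains the 2 bins of 1 Mb with the most WT peaks (8 and 7), was picked after the values were seen. It held 21 WT MLL4 peaks from 26312782 to 28950167, 17 of them WT-only and 4 shared, with fold enrichments of 4.48 to 10.7 (median 6.43). None of the 21 had a UTX peak in WT or HEAA, 7 had an MLL4 peak in HEAA, 3 had H3K4me1 of EV and 5 had H3K27ac in either EV library. Over all WT peaks, a UTX peak lay at 64.6% in WT and 62.8% in HEAA, and MLL4 of HEAA at 51.9%. H3K4me1 of EV was at 58.7% of all WT peaks and H3K27ac in either EV library at 91.5%. The stretch contributed 10 of the 28 WT-only sites with neither mark in EV. A further 6 WT peaks, 1 of them shared and none with UTX, lay on chromosome 17 from 8022287 to 8125615. Other dense bins were rich in UTX of WT. It lay at all 5 WT peaks on chromosome 15 from 90046377 to 90956441. All 5 on chromosome 19 from 41224807 to 41732168 also had it. On chromosome 16 it lay at 5 of the 6 WT peaks from 68268040 to 68832738. In the EV list, 3 of 4 peaks on chromosome 16 from 85387587 to 85554747 had it. The remaining dense bins held peaks with and without UTX.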

How the data were processed

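The data were ChIP-seq peak lists of 18 samples. The other 6 samples were inputs without a list and were not used. Per the labels' protocols, micrococcal nuclease followed by sonication fragmented the chromatin for the MLL4 and UTX antibodies, whereas sonication alone was used for histone marks. The submitters' processing notes name MACS2 and the builds hg19 and GRCh37; for the MACS2 version, aligner, read filters and duplicate handling, "not given in the sources used here" applies. The deposited lists give for each peak a fold enrichment, which is a linear ratio, and the −log10 of the p-value and q-value, all from the authors' peak caller and used only within a list. Peak names of the MLL4 lists hold a word for merged input, and what was merged is not stated. Depth is unknown.

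Positions were compared with pandas 2.3.3 and NumPy 2.4.6 under Python 3.11.15, and figures drawn with matplotlib 3.10.9. An overlap was at least 1 bp. Intervals are 95% Wilson intervals, which cover counting error only, and peaks were never treated as replicates. H3K27ac shares were compared over libraries by an exact permutation test; separate cultures are not stated for the numbered libraries, so p measures only the spread between libraries, which may be technical. Simulated lists were used to check the overlap code. Named sites were the 12 WT-only and 8 EV-only peaks of highest fold and the 8 shared sites of best mean rank of fold over both lists. Members, lists and comparisons were chosen with earlier results of these data known. A genome or annotation of hg19 was not used here, so planned gene lists, cell type markers, motifs and sequences were not run. Alternatives covered the overlap rule, q threshold, list length, peak-dense bins and replicates; leaving out shared peaks under 3-fold was chosen after seeing the data.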

Additional observations from a re-analysis of the deposited data

How the results depend on the processing

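With 1 list a side, no difference between MLL4 lists has a replicate check, and depth and antibody performance, which bear on list length, are unknown. Under other overlap rules, q minimums of 3 and 5 and without 11 dense bins, 587 to 811 sites were WT-only, 79 to 108 shared and 30 to 46 EV-only. With the WT list limited to its 133 strongest peaks, 92 were WT-only, 41 shared (30.8% of the WT peaks) and 92 EV-only. A HEAA MLL4 peak was at 40.2% of WT-only sites with a −log10 q of at least 5 in HEAA and at 52.8% with that minimum in WT, and a UTX peak of WT at 62.5% with that minimum in UTX and at 40.9% with a UTX list as long as the WT MLL4 list, against 43.6% of shared sites, which turned the order round.

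Histone shares in EV moved most with the overlap rule. With regions within 1 kb, H3K4me1 was at 98.5% of WT-only and 83.2% of shared sites. H3K27ac was at 98.2% and 85.1% in the first library and at 94.9% and 85.1% in the second. The shared values here include the 10 peaks next to the centromeres, none of which had such a region within 1 kb. With the summit inside a region, H3K4me1 was at 52.2% and 22.8%. H3K27ac was at 87.5% and 62.4% in the first library and at 77.2% of WT-only sites in the second. Without the 10, the shared values at the summit were 25.3% for H3K4me1 and 69.2% for the first H3K27ac library. With a −log10 q of at least 5, WT-only sites had H3K4me1 at 53.8% and H3K27ac at 87.2% and 76.9%, and H3K27me3 was at 0 shared sites. Without shared peaks under 3-fold, H3K27ac was at 85.7% and 81.3% of the shared sites and H3K27me3 at 0.

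The WT minus EV difference in H3K27ac at WT-only sites ranged from −7.40 percentage points without the libraries numbered 1 to 3.76 without those numbered 2, a change of sign. With the replicate number as a block it was −1.82 (p = 1, exact permutation); nothing but the number pairs the libraries. The H3K4me1 difference was −0.627 points with regions within 1 kb and −15.3 with the q minimum at WT-only sites, and 0.990 with the summit rule at shared sites, a change of sign. The cause was not tested for any of these. Over all 20 results, 65 of the other settings kept the direction and stayed within the spread or limit set for that value, 27 moved it further and 2 changed its sign. A count or share of a single class cannot change sign, so the class order that turned round for UTX is not among the 2. The 65 include H3K27me3 values that stayed at 0.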
